A study of Drosophila melanogaster with 2 samples.

Results

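A divergent promoter lies between 2 genes that are transcribed away from each other. Of the 5802 peaks of the CG17328 fusion protein on the chromosome arms, 725 (12.5%) were assigned to such promoters by a rule of distance. At 705 of them the nearest genes pointed away from each other without overlap, and 564 of those summits lay between the starts. The peaks came from chromatin immunoprecipitation followed by sequencing (ChIP-seq) in Drosophila melanogaster. Members were the peaks of the authors' conservative list on arms 2L, 2R, 3L, 3R, 4 and X whose summit lay within 500 bp of annotated starts of at least 2 protein-coding genes on opposite strands. The 2 samples were biological replicates of a single group: whole embryos of 0 to 24 h from strain CG17328-GFP, a transgenic insertion that expresses CG17328 fused to eGFP. The fusion was precipitated with an antibody against GFP from sonicated chromatin with fragments of 200 to 800 bp. Both replicates carried the insertion and the labels give them the same donor identifier. No control library, untagged strain or second condition was analysed here, and whole embryos mix all cell types and stages of that day. The labels do not name the promoter that drives the insertion.

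Divergent promoters are common in the compact fly genome and often serve broadly expressed housekeeping genes. Many of them carry the DNA replication-related element (DRE), the site of the factor DREF, whose core overlaps that of the insulator protein BEAF-32. Proteins bound between such genes can act on either promoter, and ChIP-seq peaks do not tell which of the genes, if any, is controlled. CG17328 encodes a zinc-finger protein.

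The stretches below show what lay under the summits of members, each between the annotated starts and outside every annotated transcript. They are printed 5′ to 3′ on the plus strand of dm6 and credited to the RefSeq copy of that assembly. Each pair is named by its minus-strand gene and then its plus-strand gene. Capitals mark TATCGATA (the DRE), TATAAA (the TATA box word), GTATTTT (part of promoter motif 6), CAGCNCTA or CAGCNCTG (the core of promoter motif 7) and TATTTTAA, each on either strand. The first 6 are among the 20 strongest members, and 4 of them held any of these words.
mRpS23/CenG1A (chr2L:13835410-13835510, dm6, plus strand): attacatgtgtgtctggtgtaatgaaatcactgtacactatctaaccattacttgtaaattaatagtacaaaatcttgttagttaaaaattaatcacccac
Art3/mRpS10 (chr3R:15229487-15229587, dm6, plus strand): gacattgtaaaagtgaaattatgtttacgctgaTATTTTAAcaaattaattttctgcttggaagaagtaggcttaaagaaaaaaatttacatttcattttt
Tcs5/CHMP2B (chr3L:5139446-5139546, dm6, plus strand): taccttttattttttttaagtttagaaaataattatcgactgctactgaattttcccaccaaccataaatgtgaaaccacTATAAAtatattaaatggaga
CG5611/Mtl (chr3R:27636134-27636234, dm6, plus strand): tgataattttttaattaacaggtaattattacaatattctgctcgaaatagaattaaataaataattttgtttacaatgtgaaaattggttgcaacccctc
CG13390/CG17294 (chr2L:8376834-8376934, dm6, plus strand): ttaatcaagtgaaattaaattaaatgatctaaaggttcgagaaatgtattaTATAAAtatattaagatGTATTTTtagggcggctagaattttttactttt
CG13933/PolD2 (chr3L:1775434-1775534, dm6, plus strand): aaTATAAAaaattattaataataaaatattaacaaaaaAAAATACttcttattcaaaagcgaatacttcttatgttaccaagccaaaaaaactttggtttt

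Further stretches show the range of sequence among members. The window at brm, a chromatin remodelling ATPase gene, and Arl1, an Arf-like GTPase gene, was almost all A and T. That between Nelf-E and RpL14 was far richer in G and C. RpS25 and RpL34a, both ribosomal protein genes, shared promoters with the DRE, at signals of 222 and 216, above the upper quartile of members (196). The brm, RpS25 and RpL34a stretches were chosen after their values were seen.
brm/Arl1 (chr3L:15982961-15983061, dm6, plus strand): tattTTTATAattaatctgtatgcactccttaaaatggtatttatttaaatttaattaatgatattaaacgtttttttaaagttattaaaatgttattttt
Nelf-E/RpL14 (chr3L:8600913-8601005, dm6, plus strand): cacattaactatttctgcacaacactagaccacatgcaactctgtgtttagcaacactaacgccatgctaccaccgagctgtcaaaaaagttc
RpS25/CG4820 (chr3R:11216311-11216411, dm6, plus strand): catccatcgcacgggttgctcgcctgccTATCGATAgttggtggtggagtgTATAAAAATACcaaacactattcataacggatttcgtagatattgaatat
RpL34a/Trmt61 (chr3R:26059268-26059367, dm6, plus strand): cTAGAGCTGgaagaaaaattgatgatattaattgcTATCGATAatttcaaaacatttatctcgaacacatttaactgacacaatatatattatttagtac

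Signal here is the authors' peak signal value, pooled over both samples in the conservative list, and it has no error of its own. The normalization of these values is not known. The strongest members are given first. The peak shared by mRpS23, a mitochondrial ribosomal protein gene, and CenG1A, an Arf GTPase-activating protein gene, reached 1444 in the pooled list, 631 in replicate 1 and 819 in replicate 2 (2L from 13835320 to 13835596). Art3, an arginine methyltransferase gene, and mRpS10 shared a peak of 1433, with 638 in replicate 1 and 799 in replicate 2. At Tcs5 and CHMP2B the pooled signal was 1428, with 658 and 776 in replicates 1 and 2. CHMP2B encodes a subunit of the membrane-remodelling ESCRT-III complex. Chro, which encodes the chromodomain protein Chromator, and Ssl1, a gene of the transcription factor TFIIH, shared a peak of 1384 with 596 in replicate 1 and 794 in replicate 2. In each of these 4 pairs replicate 2 gave the higher value, and the labels do not say whether the replicates share a scale.

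The other 16 of the 20 strongest members that recurred in both samples ranged from 696 at CG7183 and CG7988 to 1283 at CG5611 and Mtl. Between them stood Fbw5 and CG9147 with a pooled signal of 1199, mRpL23 and CG9004 with 1104, and Pex11ab and CG8320 with 1077. mRpL23 was the third mitochondrial ribosomal protein gene of this group, and Pex11ab takes part in peroxisome division. Elp5, a subunit gene of the Elongator complex, shared a peak of 913 with CG1275. PolD2, a DNA polymerase delta subunit gene, shared one of 902 with CG13933. CIA30, whose product assembles respiratory complex I, shared one of 872 with CG7601. The peak of fws, a Golgi tethering complex gene, and Lamtor3, of the lysosomal Ragulator complex, measured 836. Mkk4, a kinase of the Jun kinase cascade, and SLIRP2 shared 807, and l(2)gd1, an endosomal regulator of Notch, shared 717 with Reps. Peaks of 853 to 976 lay at Mnat9 and CG1792, CG3437 and CG3552, CG8372 and CG8360, CG13390 and CG17294, and tank and CG12194.

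The tagged gene's own promoter was a member. CG17328 (FBgn0028895) and heix (FBgn0028375), a prenyltransferase gene, start 356 bp apart, and the peak between them (2L from 16299999 to 16300314) had a pooled signal of 209. Replicate 1 measured 97.8 there and replicate 2 measured 117, which placed the peak at rank 167 of the 725 members. The summit lay 57 bp from the CG17328 start and 299 bp from the heix start. G+C content within 50 bp of it was 29.7%, and the window held none of the 15 words searched. The labels do not say where the insertion lies, so reads from the endogenous gene and from the insertion cannot be told apart here.

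Across all members the pooled signal had a median of 115 (quartiles 76.3 to 196, range 2.76 to 1444). The other 1615 coding promoter peaks, near starts on 1 strand or of a single gene, had a median of 92.5 (quartiles 67.2 to 164, range 2.03 to 1935). The 3462 peaks elsewhere had a median of 92.9. On the log2 scale members exceeded the other coding promoter peaks by 0.20 (SE 0.053), a 1.15-fold difference (two-sided permutation test, p = 0.0001). Taken in each sample's own ranked list, the difference was 0.12 (SE 0.043, permutation p = 0.00328) in replicate 1 and 0.27 (SE 0.047, permutation p = 1e-05, the smallest that 100000 resamples can give) in replicate 2. The distributions overlapped over nearly their whole range. Peaks are not replicates, so these p-values cover the spread between peaks only. The difference was lost against the 1167 other peaks whose summit lay at or upstream of the start (0.035, permutation p = 0.521), above the list's median signal (0.048, permutation p = 0.353), and in replicate 2's own thresholded list, that is without replicate 1 (0.087, permutation p = 0.12). With a window of 250 bp it was 0.39, and with 1000 bp 0.12.

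**Figure D1:**
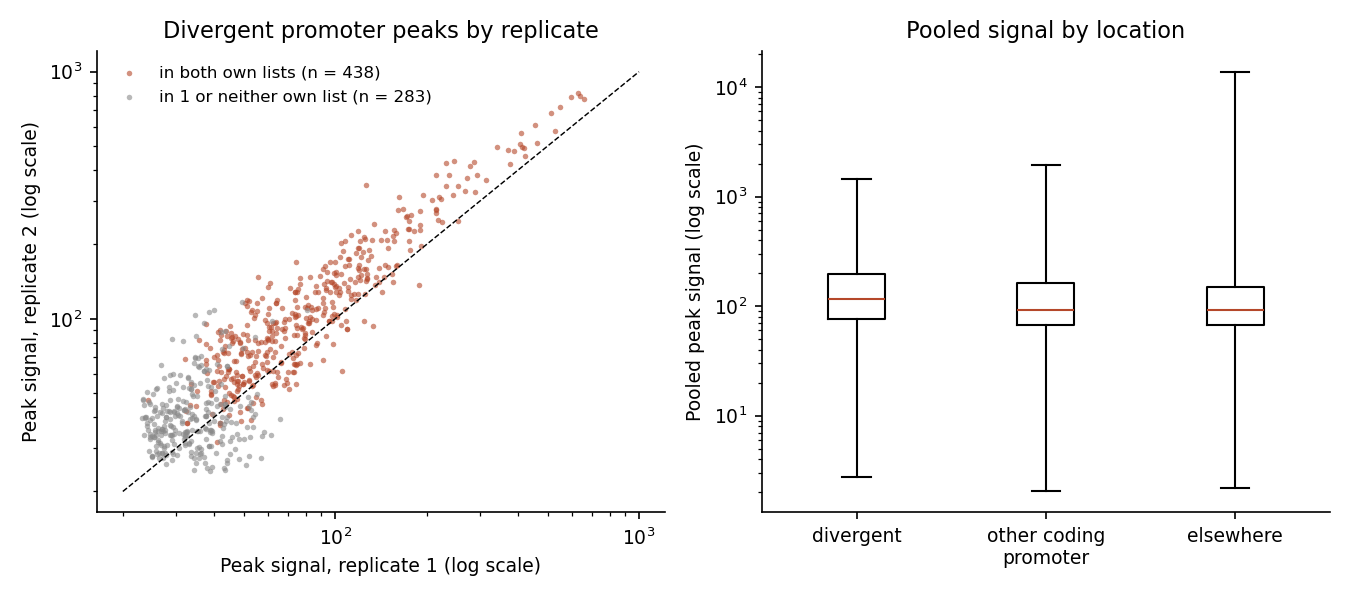
Left, authors' peak signal of members in replicate 1 against replicate 2 on log axes, 1 point per peak, with the dashed line at equality; 438 members overlapped a thresholded peak in both samples. Right, pooled signal on a log axis, with medians, quartiles and full range, by location; the medians are 115 at divergent promoters, 92.5 at other coding promoters and 92.9 elsewhere.

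Recurrence between samples was the next measure. Of the members, 438 (60.4%, Wilson 95% interval 56.8 to 63.9%) overlapped a thresholded peak in each sample's own list, against 804 (49.8%, 47.3 to 52.2%) of the other coding promoter peaks. Of the peaks elsewhere, 47.6% did so, and the background over all 5802 peaks was 49.8%. The odds ratio was 1.54 (two-sided Fisher's exact test, p = 2.01e-06). A further 113 members recurred in replicate 2 only, 49 in replicate 1 only and 125 in neither. Recurrence moved with signal. Among coding promoter peaks split into 4 equal classes of pooled signal, members and other peaks recurred at 7.09% and 4.95% in the lowest class, 23.8% and 21.1% in the next, 86.6% and 85.2% in the third, and 99.5% and 99.2% in the highest. Against summits at or upstream of the start the difference was 4.20 percentage points (Fisher's exact p = 0.0765), and above the median signal 1.52 points (p = 0.389), neither past the threshold of 0.05.

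Where both samples gave a value, replicate 2 was the higher in 575 of 721 members and in 1076 of 1593 other coding promoter peaks. The median ratio of replicate 2 to replicate 1 was 1.28 in members and 1.15 in the others. The widest ratio was at SC35, a splicing factor gene, and eRF3, a translation termination factor gene, where replicate 2 gave 103 and replicate 1 gave 34.6. The peak of CG2321 and CG2006, chosen after its values were seen, ran furthest the other way, with 27.2 in replicate 2 and 57.2 in replicate 1. Spearman's rho between the replicates, a description across peaks that share libraries, was 0.847 over members and 0.788 over the others.

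The 5 weakest members were second peaks beside a stronger one. CG3857 and CG3587 had 2.76, gfzf and the centriole gene Sas-4 had 3.28, Agpat3 and RAF2 3.37, CG10674 and CG4611 3.58, and the nucleoporin gene Nup98-96 with the myoblast fusion gene mbc 4.16. Each overlapped a stronger conservative peak at the same pair, whose pooled signals were 106, 88.4, 85.5, 46.2 and 201 in the same order. The replicate values at these places belong to those neighbours. In all, 24 members (3.31%) overlapped a stronger conservative peak, with a median signal of 10.3, and 55 other coding promoter peaks (3.41%) did so. Leaving such peaks out, an alternative chosen after seeing the data, changed no call on signal, recurrence or G+C content.

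The 725 members belonged to 695 distinct pairs of nearest genes, of which 30 had 2 peaks, and to 1387 genes. Most members, 688, had exactly 2 coding genes within the window, 32 had 3 and 5 had more. The highest number was 10, at the mod(mdg4) locus on 3R, where the annotation gives the trans-spliced exons as separate pre-mod(mdg4) genes. At 705 members the nearest genes pointed away from each other without overlap of their starts, and at 20 the genes overlapped at their starts, so that the label of a divergent promoter holds for the 705 in the strict sense. The longest overlap, 632 bp, was that of CG44290 and CG43447, with a pooled signal of 71.7.

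Between genes that point away from each other, the summits lay between the starts in 564 of 705 members (80.0%, Wilson interval 76.9 to 82.8%). By strand they favoured neither side, which does not tell whether single summits stood closer to a particular gene of their pair. The median summit was 1 bp to the left of the midpoint, 355 summits were nearer to the minus-strand start and 346 nearer to the plus-strand start. The median absolute distance to the midpoint was 68 bp, and 471 summits (66.8%) lay within 100 bp of it. Of the summits outside, 73 lay within the minus-strand gene and 68 within the plus-strand gene, a median of 53 bp past the start. The share between the starts was 25.6% at spacings of 0 to 100 bp, 86.2% at 201 to 300 bp and 100% at 601 to 1000 bp. The rule limits how far a summit may lie from either start, so these counts are a description. Above a spacing of 500 bp it allows no summit outside the starts. Spearman's rho between spacing and pooled signal, a description across peaks, was -0.01.

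**Figure D2:**
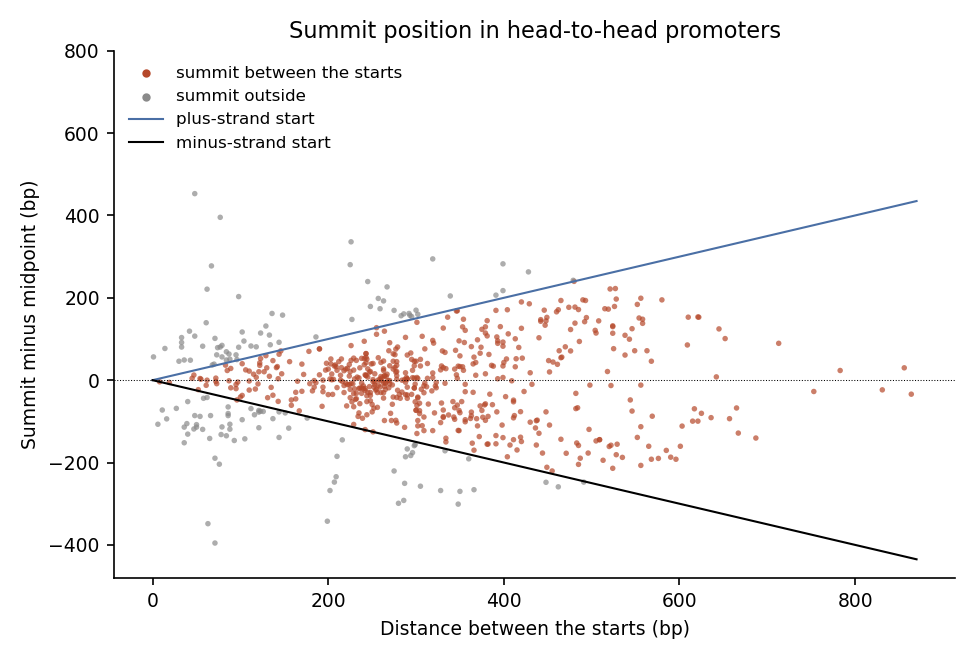
Distance between the starts (bp) against the summit's distance from the midpoint (bp, positive towards the plus-strand gene) for the 705 head-to-head members, 1 point per peak, with lines at the starts. In 564 members the summit lies between the lines.

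The starts of these 705 members were a median of 284 bp apart (quartiles 205 to 391). Atg6, the Beclin gene of autophagy, and Pisd, a phosphatidylserine decarboxylase gene, were the closest at 1 bp, with a pooled signal of 77.7. mRNA-cap, the capping enzyme gene, and CG32599 were the widest at 864 bp, with 87.8. Just inside the limit of the rule, Max and CG42374 had their farther start 495 bp from a summit of signal 71.6. Just outside, the farther start was 501 bp from the summit at stx and ras, of signal 75.5, and 502 bp at CG15107 and Topors, of signal 49.2.

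Set against the annotation, 739 of 2667 divergent coding pairs with closest starts up to 1000 bp apart (27.7%) had a conservative summit within 500 bp of both. The share was 28.1% for spacings of 0 to 100 bp, 27.0% for 101 to 200 bp, 42.3% for 201 to 300 bp, 38.8% for 301 to 400 bp, 25.5% for 401 to 600 bp and 3.66% for 601 to 1000 bp. The stretch in which a summit can count is 1000 bp minus the spacing, so the classes are not on equal terms. The shares at 201 to 300 bp and 301 to 400 bp stood above those of both closer classes, with Wilson intervals that did not overlap. Members were classed instead by the starts nearest their summit, so their classes are not the same sets as those of the pairs. The class of 0 to 100 bp held 86 members and 121 pairs with a peak, that of 601 to 1000 bp 24 and 17. Median member signals in the classes so formed were 98.2, 91.0, 133, 108, 112 and 92.2, from the closest to the widest. The members at 201 to 300 bp had the highest median and also the highest share recurring in both samples, 67.1%.

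**Figure D3:**
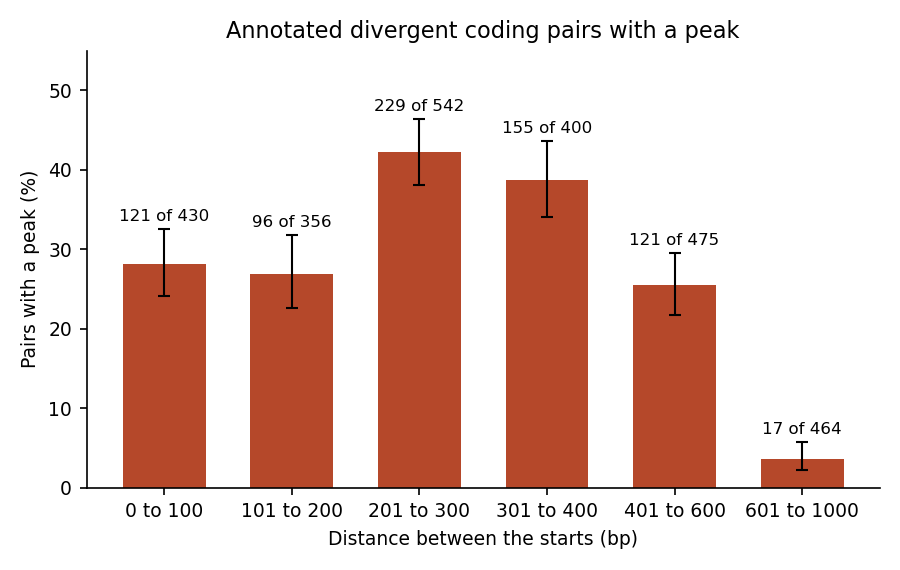
Share of annotated divergent coding pairs with a conservative summit within 500 bp of both starts (%), by distance between the starts (bp), with Wilson 95% intervals that cover counting error only. The bars at 201 to 300 bp (42.3%) and 301 to 400 bp (38.8%) are the highest.

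By arm, pairs on X had a peak in 77 of 403 cases (19.1%, Wilson interval 15.6 to 23.2%). On 2L, 2R, 3L and 3R the shares were 28.7%, 26.3%, 30.5% and 31.5%. On chromosome 4, none of 11 pairs had one (Wilson interval 0 to 25.9%). X held 76 members (10.5%), against 17.2% of the other coding promoter peaks.

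Counted by gene, 1686 of 5052 coding genes with a divergent coding neighbour (33.4%, Wilson interval 32.1 to 34.7%) had a summit within 500 bp of a start, against 1126 of 8893 other coding genes (12.7%, 12.0 to 13.4%). The background over all 13945 coding genes was 20.2%. A single peak at a divergent promoter counts for each of its genes, so the shares are not over independent events. Of the 127717 ranked candidates that lay outside every thresholded list, 1.24% lay at divergent promoters, against 12.5% of the conservative peaks. Among candidates at any coding promoter, 9.53% were divergent, and among conservative peaks at any coding promoter 31.0% were.

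The sequence under the summits of members held less G and C than that at other coding promoters. Within 50 bp of the summit, G+C content averaged 33.8% (SD 10.4, n = 725 peaks) in members and 39.3% (SD 11.8, n = 1615 peaks) at other coding promoters. The difference of -5.42 percentage points (SE 0.485) had a permutation p of 1e-05. The 3462 peaks elsewhere averaged 34.5% (SD 10.1), close to members, so a low value was not particular to divergent promoters. The values ranged from 9.90% to 62.4% in members, and the groups overlapped widely. The dip was local. Windows of the same length 300 bp to either side averaged 45.8% in members and 41.9% in the other peaks. The summit thus stood 12.0 points below its flanks in members and 2.64 points below them in the others. Midpoints of divergent pairs without a peak averaged 34.5% in the central 21 bp. At 300 bp to their left and right the means were 44.4% and 44.8%. Such a fall was thus not particular to divergent promoters with a peak.

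Members were lower in each of the 4 classes of signal, a description with no test. Members and other peaks averaged 38.9% and 45.3% in the lowest class, 36.5% and 42.6% in the next, 32.2% and 35.6% in the third, and 29.9% and 32.1% in the highest. Against summits at or upstream of the start the difference was -3.11 points, in replicate 2's own list, that is without replicate 1, -3.33 points, above the median signal -2.88 points, with a window of 250 bp -7.94 points and with a window of 1000 bp -2.58 points, each with a permutation p of 1e-05. The midpoints of annotated divergent pairs averaged 31.6% (SD 10.7) in the 739 pairs with a peak. The 1928 without one averaged 34.2% (SD 10.4), so pairs with no peak also had a dip. Without a peak, the mean was 43.8% at spacings of 0 to 100 bp and 29.3% at 201 to 300 bp. Spacing was not matched between pairs with and without a peak. Among members, the strongest 181 averaged 30.1% and the weakest 181 averaged 38.2%. The stretches of brm and Arl1 (13.9% G+C) and of CG13933 and PolD2 (17.8%) printed above stand near the low end, and that of Nelf-E and RpL14 (43.0%) stands above the mean.

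**Figure D4:**
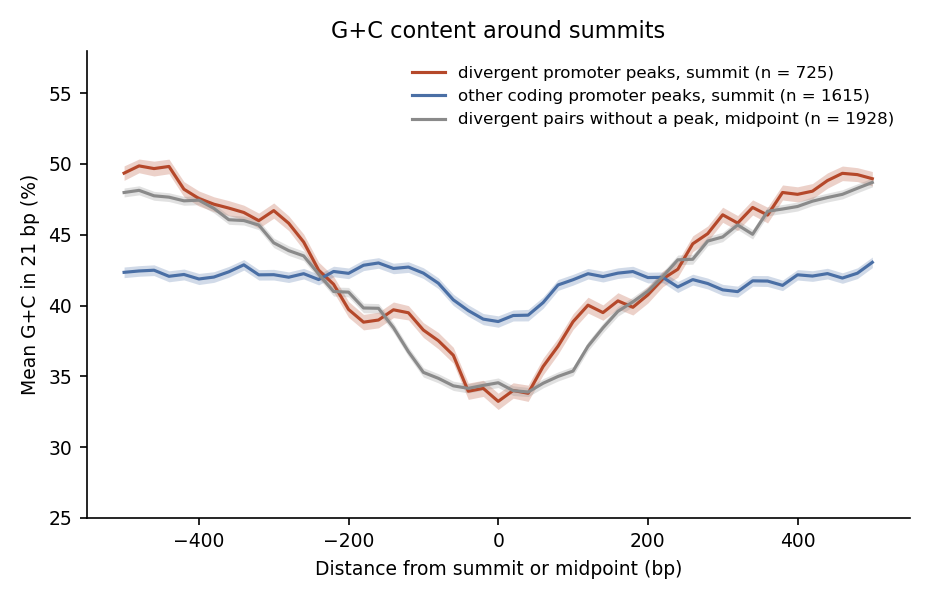
Mean G+C content (%) in windows of 21 bp against the distance from the summit (members, other coding promoter peaks) or from the midpoint (divergent pairs without a peak), with bands of 1 SEM over windows. At the centre the means are 33.2%, 38.9% and 34.5%, and at 500 bp to its left 49.4%, 42.3% and 48.0%, in that order.

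Of 15 short words searched on both strands within 50 bp of the summit, 6 were more frequent in members than at other coding promoters and 2 less frequent at an adjusted p of 0.05 (two-sided Fisher's exact test, Benjamini-Hochberg over the 15 words). TATAAA stood in 177 members (24.4%), against 16.4% of the other peaks (Fisher's exact test, adjusted p = 0.000119), and in 21.8% of the midpoint windows of divergent pairs without a peak. The DRE, TATCGATA, stood in 30 members (4.14%), against 1.98% of the others (Fisher's exact test, adjusted p = 0.0146) and 5.03% of pairs without a peak. Its parts TATCGA (11.7% against 8.30%, adjusted Fisher's exact p = 0.0279) and CGATA, the BEAF-32 core (22.3% against 17.2%, adjusted p = 0.0146), overlap it and each other. In pairs without a peak they stood at 14.9% and 24.9%. All 3 shares in members were below those of divergent pairs with no peak, a difference that was not tested. The windows of those pairs were centred on midpoints rather than summits, and spacing was not matched.

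TATTTTAA, a word chosen from earlier results of these data, stood in 7.17% of members and 4.71% of the others (adjusted Fisher's exact p = 0.034), and in 5.60% of pairs without a peak. The control word AATTAATT, made of A and T alone, stood in 2.76% of members and 1.30% of the others (adjusted Fisher's exact p = 0.034), and in 1.76% of pairs without a peak. The lower words were GAGAG, of GAGA factor, at 8.0% in members and 12.9% in the others (adjusted Fisher's exact p = 0.00381), and the initiator words TCAGTT or TCAGTC, at 6.90% in members and 11.3% in the others (adjusted p = 0.00381). In pairs without a peak GAGAG stood at 7.94%, close to members, and the initiator words at 8.92%. The other words did not pass: the motif 1 core GGTCACAC, the motif 7 core, the motif 6 part GTATTTT, the Zelda site CAGGTAG, the E box of letters CACGTG, the CTCF part AGGTGGCG and the G and C control GCCGGC. In windows of 100 bp on either side of the summit the motif 1 core, the motif 7 core and GTATTTT also passed as higher in members (adjusted Fisher's exact p = 0.00401, 0.000259 and 0.0325). Against summits at or upstream of the start only TATAAA (a difference of 5.65 points, adjusted Fisher's exact p = 0.0274) and GAGAG (-5.28 points, adjusted p = 0.00625) passed. In the samples' own lists 2 words were higher in replicate 1 and 3 in replicate 2, and 1 was lower in each.

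Within the members, the A and T words and the DRE went with different signals. TATTTTAA stood in 12.2% of the strongest 181 members and 4.97% of the weakest 181, and TATAAA in 27.6% and 16.0%. The control AATTAATT showed the same pattern, with 4.97% and 0.552%, so it was not particular to the first 2 words. TATCGA ran the other way, with 6.63% and 14.9%, and CGATA stood in 14.9% and 24.9%. The 52 members with TATTTTAA had a median signal of 164, against 112 without it. The 20 with the control AATTAATT had 190, against 112 without it. The 30 with the DRE had 96.7, against 116 without it. Mean G+C content was 24.4% in the members with TATTTTAA and 41.8% in those with the DRE, and its part in these shares was not tested. The shares are descriptions with no test. A match says only that these letters stand in the window.

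Genes were then grouped by function. The background was the 5052 coding genes with a divergent coding neighbour, of which 1423 (28.2%) had a member peak. Among cytoplasmic ribosomal protein genes, which encode the translating ribosome, 31 of 53 such genes had one (58.5%). Of the same 53, 47 (88.7%) had any conservative summit within 500 bp of a start, against 33.4% of the 5052. Over all 86 genes of the list, divergent or not, 69 (80.2%) had such a summit, against 20.2% of all coding genes. A high share was thus not particular to the divergent promoters of these genes. The 33 member peaks had a median signal of 203, above the 115 of all members, and 29 recurred in both samples, against 60.4% of all members. The highest were 599 at RpL7 and Ripalpha (254 in replicate 1, 346 in replicate 2) and 523 at RpS27 and the nucleoporin gene Nup37 (194 and 316). At Nelf-E, a subunit gene of the pausing factor NELF, and RpL14 the signal was 444 (178 and 263).

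Mitochondrial ribosomal protein genes had a member peak in 19 of 58 cases (32.8%), and 3 of the 7 strongest members lay at such genes. Their 18 peaks had a median of 106, and 10 recurred in both samples. Oxidative phosphorylation genes had 14 of 44 (31.8%), led by ND-ASHI, of respiratory complex I, and the fumarase gene Fum1 with 474 (224 in replicate 1, 246 in replicate 2). ND-24 and the synaptonemal complex gene corolla had 247, and ND-51 and CG13994 had 167. Both lists stood close to the background of 28.2%.

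Autophagy genes had a member peak in 10 of 16 cases (62.5%), with a median of 104, and 5 of the 10 peaks recurred in both samples. Atg2 and CG12093 had 349 (119 in replicate 1, 228 in replicate 2), Atg7 and the exocyst gene Sec6 had 187, and Atg9 and CG7747 had 178. Aminoacyl-tRNA synthetase genes, which charge tRNAs, had 10 of 23 (43.5%). The highest of them was GluProRS with the clathrin adaptor gene AP-1sigma at 385, followed by IleRS with Hem, of the actin-regulating WAVE complex, at 242 and SerRS with CG17260 at 178.

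Genes of chromosome architecture had 5 of 9 (55.6%). Besides Chro, they were led by Cp190, a cofactor of insulator proteins, with CG4338 at 427 (190 in replicate 1, 230 in replicate 2), and by Dref, the gene of the DRE-binding factor, with RpL13 at 236 (99.4 and 139). With 9 genes in the list, 1 gene moves the share by a large step.

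The other lists stood on either side of the background. General transcription had 7 of 24 (29.2%), among them TH1, of NELF, with the checkpoint kinase gene mei-41 at 379, and TfIIA-L with the kinase gene pll at 278. Mediator had 7 of 19 (36.8%), led by MED30 and Rev1 at 267, MED27 and elm at 189, and MED7 with the condensin II gene Cap-H2 at 167. Cell cycle and replication had 4 of 13 (30.8%), with RnrS, of ribonucleotide reductase, and CG34231 at 284, Cdk1 and mRpS7 at 135, and Dp, the E2F partner, with Fsn at 88.5.

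Proteasome genes had 6 of 26 (23.1%), and 2 of the 6 peaks recurred in both samples, with Rpn3 and l(2)37Bb at 269, Rpn13 and CtsL1 at 111, and Rpn5 and Hat1 at 79.7. Splicing genes had 4 of 19 (21.1%), with U2af50 and PIG-Q at 321, snRNP-U1-C and gukh at 243, and SmD3 and Oda at 116. Translation initiation factor genes had 3 of 21 (14.3%): eIF3h with senju at 300, eIF1 with RpL28 at 269, and eIF3a with CG1074 at 91.3. Their share was the lowest of the 12 lists. In the lists not yet given, peaks recurring in both samples numbered 8 of 12 for oxidative phosphorylation, 6 of 10 for synthetases, 4 of 7 each for general transcription, Mediator and architecture, 3 of 4 for cell cycle, 4 of 4 for splicing and 2 of 3 for initiation factors.

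No member had both of its nearest genes in the same list. In 5 members both genes stood in lists, but in different ones. They were Nelf-E and RpL14, RpL28 and eIF1, Dref and RpL13, Cdk1 and mRpS7, and mRpL55 and ATPsynD. Pairs without a peak were not counted in this way, so neither count has a background and neither is a trait of members. Their pooled signals ran from 60.7 at mRpL55 and ATPsynD (28.7 in replicate 1, 33.9 in replicate 2) to the 444 of Nelf-E and RpL14. The first 4 recurred in both samples, and that of mRpL55 and ATPsynD was in neither thresholded list.

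**Figure D5:**
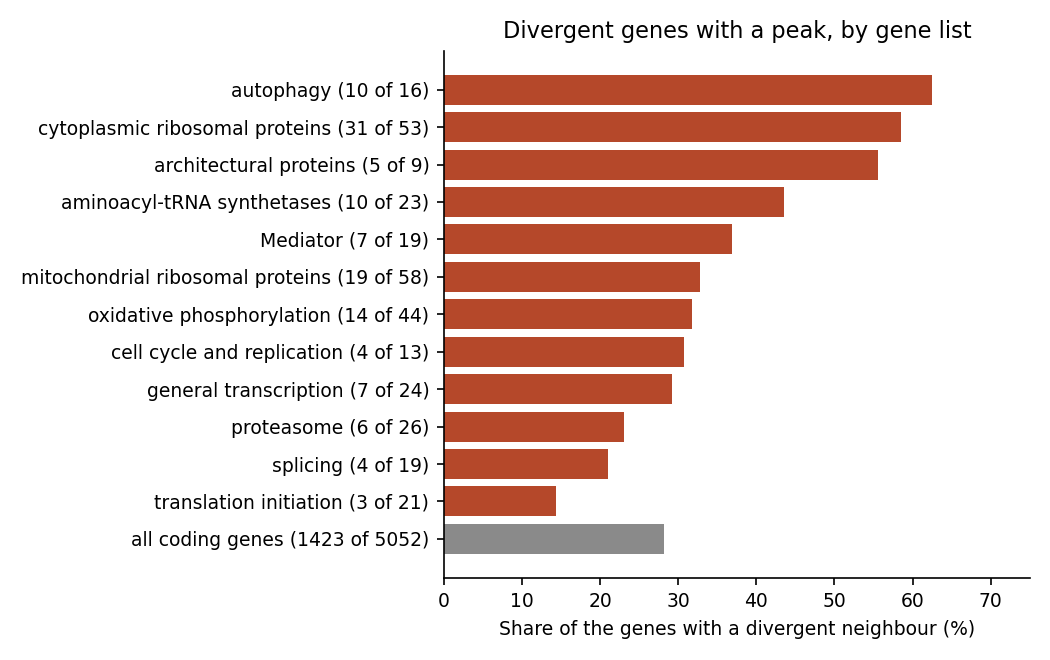
Share of coding genes with a divergent coding neighbour that have a member peak (%), by gene list, with the numbers of genes beside each name and the share over all coding genes (28.2%) in grey. Autophagy (62.5%) and cytoplasmic ribosomal protein genes (58.5%) have the highest shares and translation initiation (14.3%) the lowest.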

How the data were processed

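ChIP-seq peak lists of 2 samples on dm6 were used as deposited. Each deposited list gives a score that follows the irreproducible discovery rate, and the signal column is the authors' peak signal value. Per the file headers and listings, the conservative list derives from the alignments of both samples. Aligner, peak caller and signal normalization: not given in the sources used here. Read depth is unknown. Intervals cover counting error only, and p-values the spread between peaks, which are not replicates.

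Peaks on the 6 arms were placed by their summits against the 19253 coding starts of Ensembl release 115 on BDGP6; no peak ended past an arm, and 5 peaks on other scaffolds were left out. A member's replicate value is that of the overlapping peak with the nearest summit in the sample's own ranked list, a choice made after seeing the data; 721 members had both values. Members were compared with the other coding promoter peaks by permutation of peaks (100000 resamples) or Fisher's exact test, and the calculations were tested on simulated data (Python 3.11.15, numpy 2.4.6, pandas 2.3.3, SciPy 1.17.1, matplotlib 3.10.9).

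The members, words and gene lists were chosen with earlier results of these data known. Named are the 20 strongest members recurring in both samples, the 5 weakest, the closest and widest pairs, up to 3 members per list, the widest replicate ratio, the tagged gene and the peaks on either side of the rule's limit. One peak named by this rule is not reported here. The spacing classes, the arms, the signal classes, the G+C profile and the words by signal were added after the data had been seen. Alternatives were the other series-level list, each sample's own list, windows of 250 and 1000 bp, sequence windows of 25 and 100 bp on either side, RefSeq starts, head-to-head members, upstream comparison peaks, peaks above the median signal, and 1 peak per pair or gene.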

Additional observations from a re-analysis of the deposited data

How the results depend on the processing

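G+C content was lower in members than at other coding promoters under all 13 alternatives (-7.94 to -2.58 percentage points). The signal difference kept its direction under 11 alternatives. It missed the threshold against upstream peaks (0.035), above the median signal (0.048) and in replicate 2's own list (0.087). Replicate 1's own list gave 0.19. Recurrence fell to differences of 4.20 points against upstream peaks and 1.52 points above the median signal. The share of divergent genes with a peak was 34.8% with the other series-level list, 27.5% at 250 bp, 38.1% at 1000 bp and 23.8 to 27.1% in the samples' own lists. Summits between the starts made up 73.9% at 1000 bp.

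Words were the least stable result. The count of higher words, 6, was 3 at 250 bp, 2 with each pair or gene once, 1 against upstream peaks, 0 above the median signal, 0 in windows of 25 bp, 9 in windows of 100 bp and 2 to 3 in the samples' own lists. GTATTTT passed as higher in windows of 100 bp, with the other list (adjusted Fisher's exact p = 0.0339) and in replicate 2's own list (adjusted p = 0.0162), the motif 7 core in windows of 100 bp and at 1000 bp (adjusted p = 0.0309), and the motif 1 core in windows of 100 bp. The count of lower words, 2, was 1 at 250 bp, 1 against upstream peaks, 0 above the median signal, 0 in windows of 25 bp and 1 to 1 in the samples' own lists. Differences changed sign, in percentage points, as follows. TATCGA became -0.355 above the median signal, where the motif 1 core was -0.0362, Zelda -0.128 and GCCGGC -0.43. In windows of 25 bp the motif 1 core was -0.239 and GCCGGC -0.00555. In windows of 100 bp the E box was 0.814, Zelda -0.0534 and GCCGGC -0.928. At 1000 bp GCCGGC was -0.0782, and with the other list Zelda was -0.0418. In the samples' own lists GCCGGC was -1.21 to -0.212, Zelda -0.357 to 0.0201 and the motif 7 core -0.178 to 2.22. The cause of these changes was not tested. No paired analysis was possible because both samples form 1 group. Without read counts, the depth limit of any value is unknown.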

Other observations

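Outside every thresholded list, 1583 ranked candidates lay at divergent promoters. Of these, 10 had a score at or over the 830 that marks the thresholded lists. The other candidates were not counted in this way, so the number has no background. The samples' own thresholded lists, with members chosen again in each, held 496 divergent promoter peaks of 3708 (13.4%) in replicate 1 and 589 of 4216 (14.0%) in replicate 2, against 12.5% of the conservative list. Median signals there were 66.3 at divergent and 60.01 at other coding promoters in replicate 1, and 80.0 and 71.3 in replicate 2. G+C content at the summit was 33.7% and 38.4% in replicate 1, and 32.5% and 35.8% in replicate 2.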
